A study of Gallus gallus with 6 samples.

Results

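Matrix metalloproteinases (MMPs) and their tissue inhibitors (TIMPs) were followed in skin taken beside the cloaca of Ma-Huang chickens. Of 9 names (MMP2, MMP7, MMP9, MMP11, MMP13, MMP16, MMP27, TIMP2 and TIMP3), 8 matched a gene of that NCBI symbol among the 18315 genes in the files. MMP11 stood in the RefSeq table only as another name of SMARCB1 (Gene ID 769489), a chromatin remodelling subunit, and was left out. The values of that row, between 35.54 and 41.06 FPKM in s_light and between 33.95 and 40.28 FPKM in s_deep, were therefore not read as those of an MMP. Another 9 genes of the files carry an MMP or TIMP symbol, and they serve as the comparison below.

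MMPs are zinc-dependent proteases that cut collagens, elastin and other proteins of the extracellular matrix. Most are secreted as inactive precursors, some are anchored in the cell membrane, and a propeptide has to be removed before they can act. TIMPs bind the active site and block it, so the balance between the families bears on how fast the dermis is turned over, in normal skin and in wound repair. In mammals TIMP2 also has a role in activating MMP2, through a membrane-type MMP, and TIMP3 is held in the matrix itself and inhibits several ADAM and ADAMTS proteases besides MMPs.

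The s_light group held 3 birds with low yellowness of the cloacal skin (s_light8275, s_light6575 and s_light6971), and the s_deep group 3 birds with high yellowness (s_deep6402, s_deep7858 and s_deep6403), each named by its wing number. All came from 1 commercial pure line without treatment, were of the same age and were fed alike; the labels give neither sex nor batch. A disc of skin was cut from each bird, the fat below it was scraped off, and 1 library of poly(A) RNA was made per bird. FPKM counts the fragments assigned to a gene, scaled to the length of its exons and to all mapped fragments of the library, so that levels of different genes can be set beside each other. The reads behind each gene are not known from FPKM, and so the counting error of the lowest genes is not known either.

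The libraries were alike in their sums, between 471488 and 487585 FPKM in s_light and between 472540 and 488777 FPKM in s_deep. In 2 of the s_deep libraries the genes of the W chromosome, which only hens carry, were close to 0: the mean log2(FPKM + 0.1) of 34 such genes was between 2.70 and 3.02 in the s_light libraries, against -1.32, 3.00 and -1.60 in s_deep6402, s_deep7858 and s_deep6403. By these values s_deep6402 and s_deep6403 were probably males, and s_deep7858 and the s_light birds hens, which the labels do not state. Sex and yellowness are thus partly confounded, and with so few birds they cannot be told apart in a difference between the groups. The log2 fold changes of the MMP and TIMP genes, and of the proteases, matrix genes and regulators named with them, were therefore also fitted with this mean as a covariate. The ratios between genes were not. With the covariate, the group difference rests mainly on s_deep7858, the s_deep library with a W-linked mean like those of s_light. In a supplementary listing of skin colour after slaughter, the wing number of s_deep6403 stands in the nearly white class, although its label gives high yellowness of the cloacal skin. Keratin 5 (KRT5), a basal keratinocyte gene, was read at between 769.1 and 1368.81 FPKM over the libraries, and COL1A1, of dermal collagen, at between 454.31 and 1258.5 FPKM, as in skin with its dermis. DES (desmin, of muscle) was read at between 400.69 and 1012.54 FPKM in s_light and between 27.11 and 92.59 FPKM in s_deep, without overlap. In bulk skin, fewer cells of a type and less RNA per cell cannot be told apart.

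The 8 genes fell into an abundant and a scarce set. TIMP2, MMP2, TIMP3 and MMP27 had means over the 6 libraries of 365, 285, 153 and 90.8 FPKM. They stood at or above the 95.6th percentile of the 15900 genes that averaged 0.1 FPKM or more. MMP16, MMP13, MMP7 and MMP9 had means of 0.9, 0.808, 0.323 and 0.16 FPKM, and none of them was above the 16.9th percentile. All 8 passed that minimum of 0.1 FPKM, which looked at the mean over both groups. In the order of levels, MMP27 was above MMP16 and MMP2 above TIMP3 in 6 of 6 libraries. The neighbours TIMP2 and MMP2, TIMP3 and MMP27, MMP16 and MMP13, and MMP13 and MMP7 kept their order in 5 of 6 libraries, and MMP7 and MMP9 in 4 of 6. In FPKM the ranges of each of these 5 pairs, and those of MMP2 and TIMP3, overlapped over the 6 libraries. The order is a description, and differences in level between neighbours were not tested.

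**Figure D1:**
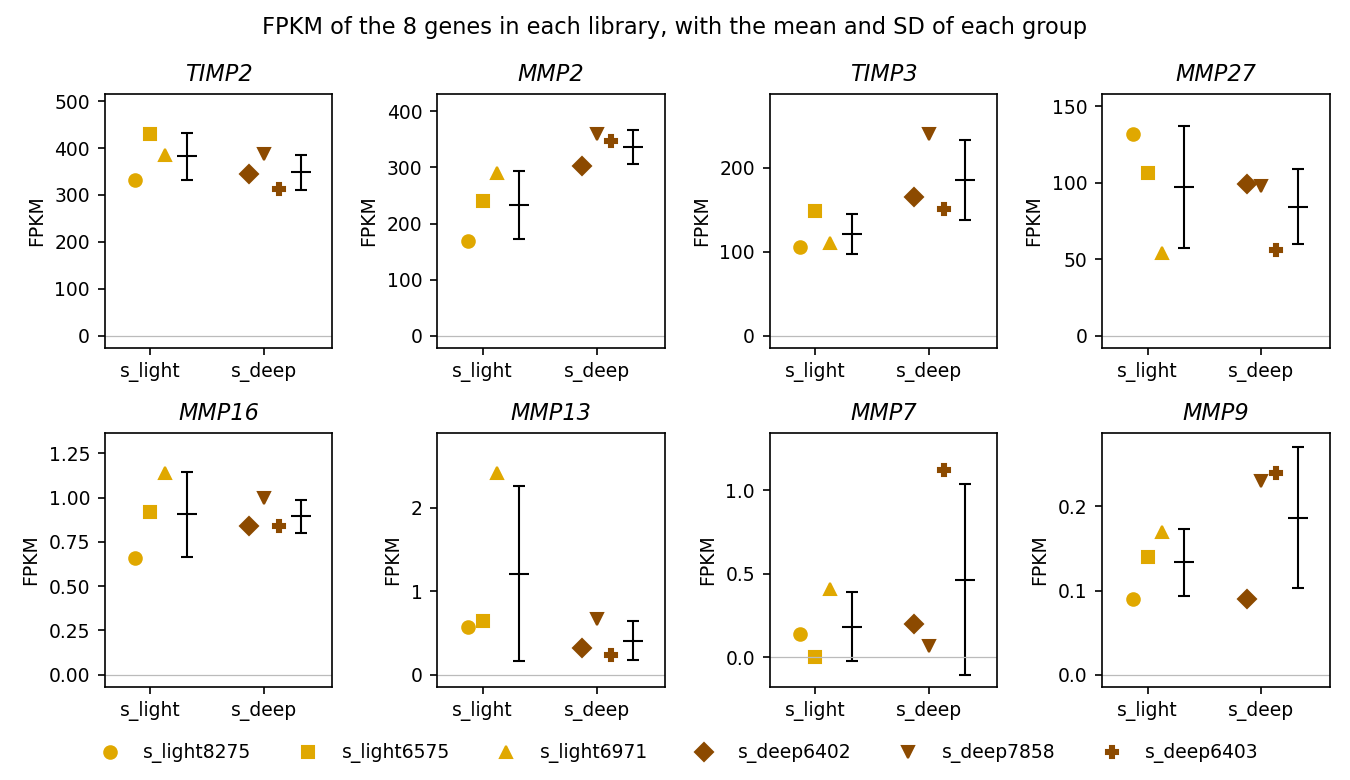
FPKM of TIMP2, MMP2, TIMP3, MMP27, MMP16, MMP13, MMP7 and MMP9 (1 panel each, vertical axis in FPKM, each on its own scale) in the 3 s_light libraries at the left and the 3 s_deep libraries at the right, 1 marker per library, with the mean and SD (n = 3) as a bar beside them. MMP2 lay between 169.55 and 290.57 FPKM in s_light and between 302.38 and 360.03 FPKM in s_deep, and TIMP3 likewise showed no overlap, whereas the ranges of the other 6 genes overlapped.

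The groups were compared with limma on log2(FPKM + 0.1) over all 15900 genes, with Benjamini-Hochberg adjustment, and a gene was called when its log2 fold change was at least 1 in either direction with an adjusted p of at most 0.05. Over all genes 0.044% were called, and 6.45% had an unadjusted p under 0.05. None of the 8 MMP and TIMP genes was called by limma, and 2 of them, MMP2 and TIMP3, had an unadjusted p under 0.05, both lower in s_light. Without s_deep7858, and likewise without s_light8275, 0 of the 8 had such a p. With the W-linked mean as a covariate TIMP3 alone had one, and MMP2 had an unadjusted p of 0.0783 (limma). In that fit the group difference rests mainly on s_deep7858, in which both genes were at their highest. Of the 8 genes 5 had a log2 fold change below 0, against 53.8% of all tested genes. An unadjusted p under 0.05 with a lower level in s_light was found in 2.96% of all tested genes. The same 2 genes had FPKM ranges without overlap, against 5.48% of all tested genes lower in s_light and 10.8% in either direction. None of the 8 was without overlap and higher in s_light, where 5.36% of all tested genes were. The median log2 fold change of the 8 genes was -0.13, and that of all tested genes was -0.02. No member passed the threshold in any of the other settings tried, so what follows gives levels and spreads rather than calls.

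MMP2 (gelatinase A, Gene ID 386583, chromosome 11), a secreted protease that cuts denatured collagen and collagen IV of basement membranes, was read at 169.55, 240.01 and 290.57 FPKM in s_light8275, s_light6575 and s_light6971. In s_deep6402, s_deep7858 and s_deep6403 it was read at 302.38, 360.03 and 346.55 FPKM. Every s_light library was thus below every s_deep library, although s_light6971 and s_deep6402 were close. The means were 233 ± 60.8 FPKM in s_light and 336 ± 30.2 FPKM in s_deep (SD, n = 3 each; p = 0.1 by exact permutation, two-sided, which is as low as 3 against 3 can go). The log2 fold change was -0.56 ± 0.21 (SE), its 95% interval ran from -1.05 to -0.07, and limma gave an adjusted p of 0.714. It lay between -0.73 and -0.34 over the other settings, and was -0.34 without s_light8275, the library with the lowest level, and -0.53 without s_deep6403.

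TIMP3 (Gene ID 396483, chromosome 1), the inhibitor that stays bound to the matrix, was read at 104.94, 148.34 and 109.97 FPKM in s_light8275, s_light6575 and s_light6971. It was read at 164.79, 240.22 and 151 FPKM in s_deep6402, s_deep7858 and s_deep6403. The groups did not overlap here either, but the gap between s_light6575 and s_deep6403 was narrow, and s_deep7858 stood well above the rest. The means were 121 ± 23.7 FPKM in s_light and 185 ± 48 FPKM in s_deep (SD, n = 3 each; p = 0.1 by exact permutation, two-sided). The log2 fold change was -0.60 ± 0.21 (SE), its 95% interval ran from -1.11 to -0.09, and limma gave an adjusted p of 0.698. With the W-linked mean as a covariate it was -1.0 (adjusted p = 0.438, limma), a value that rests mainly on s_deep7858 for the s_deep side. Without s_deep7858 the log2 fold change was -0.40, and without s_deep6403 it was -0.73.

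The summed markers of macrophages, smooth muscle and adipocytes did not overlap between the groups, and those of endothelium, fibroblasts and keratinocytes did. Singly, 4 of 8 macrophage, 6 of 9 smooth muscle and 3 of 6 adipocyte genes were without overlap. So were 2 of 7 endothelial, 1 of 8 keratinocyte and 0 of 10 fibroblast genes, against 10.8% of all tested genes. Over all tested genes 53.8% had a log2 fold change below 0, and the share of such sums without overlap is not known. Of 8 macrophage genes found in the files, 7 had a lower mean in s_light. The summed FPKM of the 8 lay between 1960 and 2598 in s_light and between 2760 and 3342 in s_deep. Most of these sums came from CD74 alone, read at between 1713.48 and 2272.37 FPKM in s_light and between 2399.29 and 2755.03 FPKM in s_deep. All 7 endothelial genes had a lower mean in s_light, with sums between 395 and 520 FPKM in s_light and between 458 and 604 FPKM in s_deep. Of 9 smooth muscle genes, 8 were higher in s_light, with sums between 3731 and 7098 FPKM in s_light and between 1755 and 3389 FPKM in s_deep. The other, ACTA2, had a mean of 767 FPKM in s_light and 989 FPKM in s_deep. The 6 adipocyte genes summed to between 2220 and 2305 FPKM in s_light and between 1526 and 1833 FPKM in s_deep, and 5 of them were higher in s_light. The remaining adipocyte gene, ADIPOQ, had a mean of 797 FPKM in s_light and 1008 FPKM in s_deep. Of the 10 fibroblast genes 6 had a lower mean in s_light, with sums between 2890 and 5554 FPKM in s_light and between 3022 and 4470 FPKM in s_deep. Of the 8 keratinocyte genes 7 had a lower mean in s_light, with sums between 1520 and 2466 FPKM in s_light and between 1913 and 2230 FPKM in s_deep. No gene of these lists was at 0 in every library. The part of these cell types in the levels of MMP2 and TIMP3 was not tested.

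TIMP2 (Gene ID 374178, chromosome 18), the most abundant of the 8 genes, was read at 331.05, 430.31 and 385.28 FPKM in s_light8275, s_light6575 and s_light6971. In s_deep6402, s_deep7858 and s_deep6403 it was read at 343.84, 387.85 and 313.22 FPKM. The groups overlapped, and the highest library was above the lowest by a factor of only 1.37, the narrowest spread of the 8 genes. The means were 382 ± 49.7 FPKM in s_light and 348 ± 37.5 FPKM in s_deep (SD, n = 3 each). The log2 fold change was 0.13 ± 0.15 (SE), its 95% interval ran from -0.22 to 0.49, and limma gave an adjusted p of 0.988. A log2 difference above 0.49 in either direction lies outside that interval.

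The ratio of MMP2 to TIMP2 parted the groups without overlap, as MMP2 alone did, whereas TIMP2 alone overlapped. MMP2 FPKM divided by TIMP2 FPKM was 0.512, 0.558 and 0.754 in s_light8275, s_light6575 and s_light6971, and 0.879, 0.928 and 1.11 in s_deep6402, s_deep7858 and s_deep6403. The mean ratio was 0.608 ± 0.129 in s_light and 0.971 ± 0.119 in s_deep (SD, n = 3 each). The 6 values are a description and were given no test, and the share of such ratios without overlap over all genes is not known. In s_deep7858, the s_deep library in which W genes were read, the ratio was also above that of each s_light library. That is 1 bird, with the highest MMP2 of the 6, and the part of sex in the ratio was not tested. MMP2 divided by TIMP3, in contrast, overlapped, between 1.62 and 2.64 in s_light and between 1.5 and 2.3 in s_deep. The FPKM of the 6 MMPs together, divided by those of TIMP2 and TIMP3, lay between 0.601 and 0.704 in s_light and between 0.732 and 0.873 in s_deep. Of the summed FPKM of all TIMP genes, TIMP2 made up between 72% and 73.6% in s_light and between 60.4% and 66.4% in s_deep. MMP2 had the highest mean of the 6 MMPs, and TIMP3 was itself lower in s_light without overlap. These sums and shares therefore restate the differences of MMP2 and TIMP3 in part and are not separate results.

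**Figure D2:**
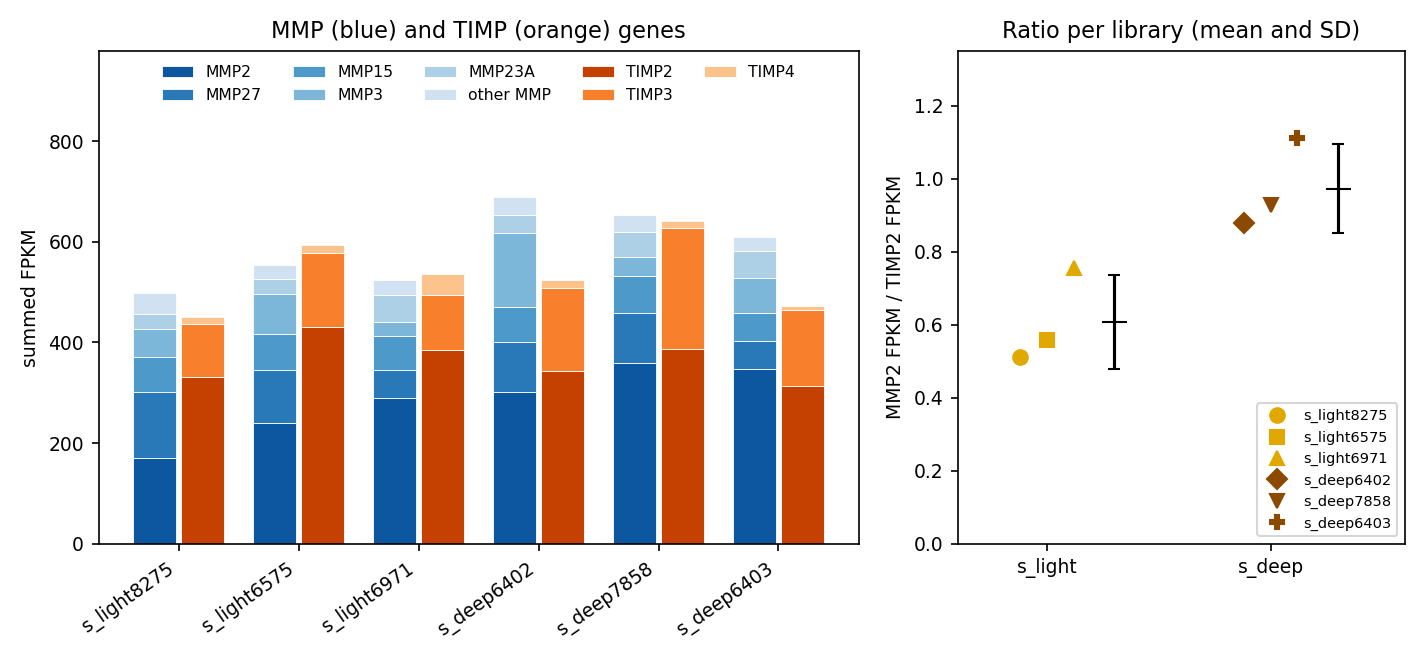
Left, summed FPKM (vertical axis) of MMP genes in blue and TIMP genes in orange for each library, s_light libraries at the left, with the most abundant genes as segments. Right, the ratio of MMP2 FPKM to TIMP2 FPKM in each library, 1 marker per library, with the mean and SD of each group (n = 3) as a bar. The MMP sums lay between 498 and 555 FPKM in s_light and between 611 and 690 FPKM in s_deep, and the highest ratio in s_light, 0.754, was below the lowest in s_deep, 0.879. MMP2, itself without overlap, held between 34% and 55.5% of the MMP sums in s_light and between 43.8% and 56.8% in s_deep.

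MMP27 (Gene ID 395850, chromosome 1), of the stromelysin-like branch of the family, was read at 131.86, 105.94 and 53.84 FPKM in s_light8275, s_light6575 and s_light6971. In s_deep6402, s_deep7858 and s_deep6403 it was read at 98.9, 97.92 and 56.13 FPKM. The low libraries, s_light6971 and s_deep6403, came from different groups, so birds within a group differed more than the groups did. The means were 97.2 ± 39.7 FPKM in s_light and 84.3 ± 24.4 FPKM in s_deep (SD, n = 3 each). The log2 fold change was 0.16 ± 0.37 (SE), its 95% interval ran from -0.71 to 1.02, and limma gave an adjusted p of 0.999. The sign was the same in 11 of 15 other settings, of which those of the filter and the trend cannot change it. The log2 fold change was -0.16 with the W-linked mean as a covariate and -0.11 among the libraries with W genes read. It was -0.11 without s_light8275 and -0.11 without s_deep6403. Over the 6 libraries together MMP27 had the second highest mean of the MMP genes, after MMP2, while in s_deep its mean of 84.3 FPKM was next to that of MMP3, 84.7 FPKM. MMP27 held between 10.3% and 26.5% of their summed FPKM in s_light and between 9.19% and 15% in s_deep.

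MMP13 (collagenase-3, Gene ID 395683, chromosome 1), which can cut fibrillar collagen, was read at 0.57, 0.64 and 2.42 FPKM in s_light8275, s_light6575 and s_light6971. It was read at 0.32, 0.67 and 0.23 FPKM in s_deep6402, s_deep7858 and s_deep6403. A single library, s_light6971, held 66.7% of the s_light FPKM, and s_deep7858 was above the other 2 s_light libraries. The log2 fold change was 1.18 ± 0.60 (SE), its 95% interval ran from -0.24 to 2.60, and limma gave an adjusted p of 0.841. It was 0.57 without s_light6971 and 0.57 with the W-linked mean as a covariate. In s_light6971 COL1A1 was also at its highest, 1258.5 FPKM, against at most 744.32 FPKM in any other library, and the summed fibroblast markers reached 5554 FPKM. Their part in the level of MMP13 was not tested.

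MMP16 (Gene ID 396116, chromosome 2), a membrane-type MMP that can activate the MMP2 precursor in mammals, was read at between 0.66 and 1.14 FPKM in s_light and between 0.84 and 1 FPKM in s_deep. Its log2 fold change of -0.01 (95% interval from -0.71 to 0.70, adjusted p = 1.0, limma) was close to 0. MMP7 (matrilysin, Gene ID 418983, chromosome 1), a small MMP of epithelia, was read at 0.14 and 0.41 FPKM in s_light8275 and s_light6971, was listed at 0 in s_light6575, and was read at 0.2, 0.07 and 1.12 FPKM in s_deep6402, s_deep7858 and s_deep6403. The library s_deep6403 held 80.6% of the s_deep FPKM. The log2 fold change of MMP7 was -0.78 (95% interval from -2.86 to 1.30, adjusted p = 0.986, limma), 0.03 without s_deep6403 and 0.52 with the W-linked mean as a covariate.

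MMP9 (gelatinase B, Gene ID 395387, chromosome 20), a protease stored by granulocytes and made by macrophages and osteoclasts, was the scarcest of the 8 genes. It was read at 0.09, 0.14 and 0.17 FPKM in s_light8275, s_light6575 and s_light6971 and at 0.09, 0.23 and 0.24 FPKM in s_deep6402, s_deep7858 and s_deep6403. The groups overlapped, and the log2 fold change was -0.26 (95% interval from -1.26 to 0.73, adjusted p = 0.995, limma). Of 12 listed genes of heterophils, the avian granulocytes, 7 were found in the files. These 7 summed to between 6.7 and 12.9 FPKM in s_light and between 8.82 and 12.2 FPKM in s_deep, and CSF3R made up most of each sum. Among the 7, the defensin gene AvBD7 was listed at 0 in all 6 libraries and AvBD6 at 0 in all but s_light6575. The part of heterophils or macrophages in the level of MMP9 was not tested.

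**Figure D3:**
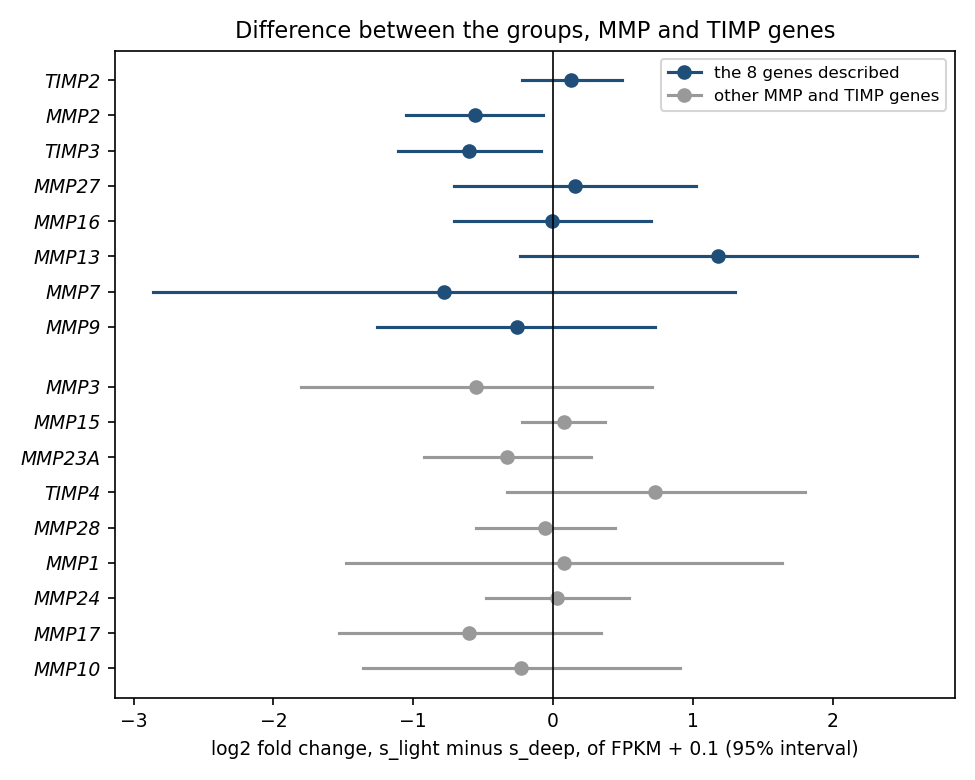
Log2 fold change of FPKM + 0.1, s_light minus s_deep (horizontal axis), with its 95% interval from limma, for the 8 genes described (blue) and for the other 9 MMP and TIMP genes (grey), each block ordered by mean FPKM from the top. Only the intervals of MMP2 and TIMP3 exclude 0 before adjustment, and those of MMP7 and MMP13, at under 1 FPKM on average, are the widest of the 8.

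The groups overlapped in each of the other 9 MMP and TIMP genes, whereas 10.8% of all tested genes were without overlap. None of the 9 was called, against 0.044% of all tested genes. None had an unadjusted p under 0.05 (limma), against 6.45%. With so few genes these counts are near the shares over all tested genes. The log2 fold changes of the 9 lay between -0.60 and 0.73 with a median of -0.06. MMP15, a membrane-type MMP, was the steadiest, between 68.23 and 71.72 FPKM in s_light and between 56.51 and 74.68 FPKM in s_deep. MMP3, a stromelysin, was read at between 29.02 and 78.39 FPKM in s_light and between 38.15 and 146.24 FPKM in s_deep, with the peak in s_deep6402. TIMP4 was read at 40.18 FPKM in s_light6971, against between 14.07 and 14.68 FPKM in the other s_light libraries and between 7.83 and 16.05 FPKM in s_deep. MMP1, a collagenase, was read at 14.55 FPKM in s_light8275, which held 70% of its s_light FPKM, and at between 2.77 and 8.33 FPKM in s_deep. MMP23A lay between 29.87 and 52.11 FPKM in s_light and between 35.85 and 53.23 FPKM in s_deep. MMP28 (epilysin, an MMP of keratinocytes), MMP24 and MMP17 (both membrane-type) and MMP10 (a stromelysin) had means over the 6 libraries of 15.5, 5.37, 3.45 and 0.51 FPKM.

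On chromosome 1 of assembly GRCg7b, the genes MMP13, MMP10, MMP3, MMP1, MMP27 and MMP7 follow each other with no other protein-coding gene between them. That assembly is newer than the one the files were made on. The gene order and the chromosome of each gene were taken from it, and no coordinates are given. The 6 neighbours were read at very unlike levels, with MMP27 at 90.8 FPKM and MMP3 at 69.4 FPKM on average, MMP1 at 6.18 FPKM and the other 3 under 1 FPKM. Their levels did not move together as a set over the libraries. Pearson's r of log2(FPKM + 0.1) for the 15 pairs lay between -0.78 and 0.78, with a median of -0.10 (n = 6 libraries, given as a description). Of the pairs side by side, MMP10 and MMP3 had an r of 0.78, and MMP1 and MMP27 one of 0.76. It was -0.60 for MMP13 and MMP10, -0.07 for MMP3 and MMP1, and -0.78 for MMP27 and MMP7. Reads that fit more than one of these related genes could be split between them, which was not tested.

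**Figure D4:**
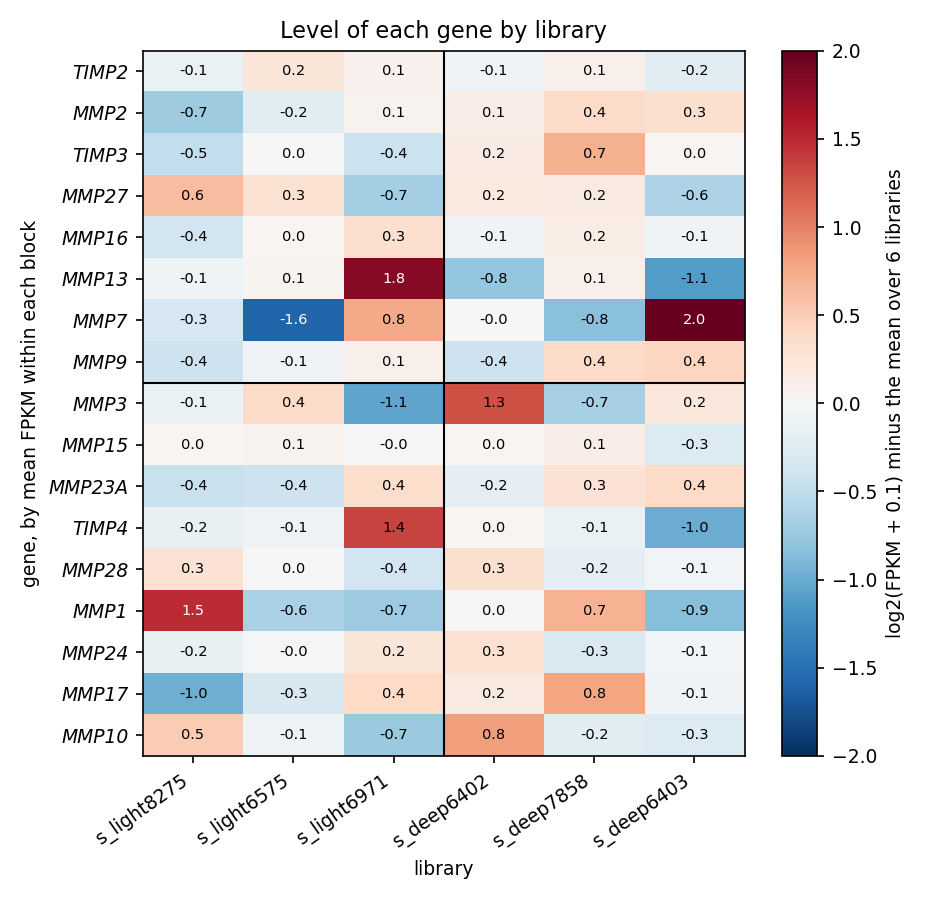
Level of each gene (rows) in each library (columns, s_light libraries left of the line) as log2(FPKM + 0.1) minus the mean of that gene over the 6 libraries, written in each cell and coloured from blue (below) to red (above). The 8 genes described are above the horizontal line. MMP2 is below its mean in s_light8275 and s_light6575. It is above its mean in the 3 s_deep libraries and, by 0.072, in s_light6971, where MMP13 and TIMP4 share their peak.

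Each library held the highest FPKM of between 1 and 4, and the lowest of between 0 and 6, of the 17 genes of both families, which was not tested. The lowest FPKM was in s_light8275 for 6 of them (MMP16, MMP17, MMP2, MMP23A, MMP9 and TIMP3), where the ratio of MMP27 to MMP2 reached 0.778, against between 0.185 and 0.441 in the other s_light libraries and between 0.162 and 0.327 in s_deep. MMP9 was as low in s_deep6402. In s_light6971 MMP13, MMP16 and TIMP4 were at their highest and MMP10, MMP27, MMP28 and MMP3 at their lowest. In s_deep6403 the lowest levels of MMP1, MMP13, MMP15, TIMP2 and TIMP4 were found. In s_deep6402 no gene was at its lowest other than MMP9, in the tie with s_light8275.

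Over the 6 libraries, the 3 genes most like MMP2 among 11168 genes with a symbol and a mean of at least 1 FPKM were ABRACL, GALNT13 and PLEKHA2 (Pearson's r of 0.984, 0.983 and 0.982). For TIMP3 they were ELK4, ABCG1 and SLA2 (0.976, 0.975 and 0.974), for TIMP2 MTMR14, LIMCH1 and ACTR10 (0.989, 0.988 and 0.987) and for MMP27 MFGE8, ZBTB25 and PPFIBP1 (0.992, 0.989 and 0.989). The 4 lists share no gene. With 6 libraries and this many genes, values near 1 are to be had without any tie between the genes, and they are given as a description only.

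Of the genes that activate MMPs or hold them in check, 16 had levels high enough for testing. None was called by limma, and 1 had an unadjusted p under 0.05, against 6.45% of all tested genes. Of the 16 genes, 9 had a positive and 7 a negative fold change, and their median log2 fold change was 0.08. The ranges of 2 (12.5%) did not overlap, against 10.8% of all tested genes in either direction. Both were lower in s_light, as were 5.48% of all tested genes. The lowest p was that of PLAT, tissue plasminogen activator, which was read at 11.03, 8.13 and 14.85 FPKM in s_light8275, s_light6575 and s_light6971 and at 19.11, 15.93 and 17.02 FPKM in s_deep6402, s_deep7858 and s_deep6403. Its log2 fold change was -0.65 ± 0.22 (SE), with an adjusted p of 0.673 (limma), and -0.51 with the W-linked mean as a covariate (adjusted p = 0.926, limma). CTSK, the collagen-cutting protease cathepsin K, was read at between 211.08 and 284.68 FPKM in s_light and between 290.52 and 355.36 FPKM in s_deep, without overlap, with an adjusted p of 0.887 (limma). THBS2, thrombospondin 2, which binds MMP2 for uptake into cells, had a log2 fold change of 0.29 (adjusted p = 0.938, limma).

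Among 24 ADAM, ADAMTS and related metalloproteases tested, none was called by limma and 3 had an unadjusted p under 0.05, against 6.45% of all tested genes. All 3 were higher in s_light, where 3.49% of all tested genes had such a p. The median log2 fold change of the 24 was -0.06. ADAMTS5, an aggrecanase that TIMP3 inhibits in mammals, was read at 2.11, 3.48 and 3.06 FPKM in s_light8275, s_light6575 and s_light6971, against 1.15, 1.55 and 0.85 FPKM in s_deep6402, s_deep7858 and s_deep6403. The groups did not overlap, and the log2 fold change was 1.22 ± 0.31 (SE), with an adjusted p of 0.458 (limma). With the W-linked mean as a covariate it was 0.83 (adjusted p = 0.852, limma). Of the 24 genes, 4 were without overlap and higher in s_light, against 5.36% of all tested genes. Another 1 was without overlap and lower in s_light, against 5.48%. In either direction 5 (20.8%) were without overlap, against 10.8% of all tested genes. ADAMTS9 and ADAMTS1, further proteoglycan-cutting proteases, had log2 fold changes of 0.36 and 0.85 (adjusted p = 0.748 and 0.763, limma).

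Of 29 genes for matrix proteins that MMPs cut or that lie beside their substrates, 1 was called, and the median log2 fold change was 0.07. The share called over all tested genes was 0.044%. Of the 29 genes, 4 had an unadjusted p under 0.05 (limma), against 6.45% of all tested genes. All 4 were higher in s_light, as were 3.49% of all tested genes. The ranges of 3 of the 29 (10.3%) did not overlap, against 10.8% of all tested genes. The gene called was FMOD (fibromodulin, a small proteoglycan on collagen fibrils), read at 17, 11.67 and 7.89 FPKM in s_light8275, s_light6575 and s_light6971 and at 0.24, 0.43 and 0.38 FPKM in s_deep6402, s_deep7858 and s_deep6403. It rose with a log2 fold change of 4.73 ± 0.34 (SE; limma, adjusted p = 0.0176). The paper lists FMOD among its most differentially expressed genes in these birds, and the gene list was chosen with earlier results known. The 1 call is therefore no separate result about the list. FMOD was also called without s_deep7858 (adjusted p = 0.00651, limma), but not with any other library left out (adjusted p between 0.0586 and 0.175, limma) and not with the W-linked mean as a covariate (adjusted p = 0.154, limma). Of 26 genes for regulators of MMP transcription, none was called by limma, and their median log2 fold change was 0.02. The ranges of 3 of the 26 (11.5%) did not overlap, against 10.8% of all tested genes. An unadjusted p under 0.05 was found for 1 gene of the 26, against 6.45% of all tested genes. That gene was ATF3, a stress-induced transcription factor, read at 38.43, 52.53 and 73.43 FPKM in s_light8275, s_light6575 and s_light6971, against 2.28, 6.05 and 4.97 FPKM in s_deep6402, s_deep7858 and s_deep6403. Its log2 fold change was 3.66 ± 0.39 (SE), with an adjusted p of 0.0529 (limma). With the W-linked mean as a covariate it was 3.19 (adjusted p = 0.307, limma). FOS, a subunit of AP-1, and TGFB2, a growth factor of the dermis, had log2 fold changes of 1.44 and 0.68 (adjusted p = 0.779 for both, limma).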

How the data were processed

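Total RNA of cloacal skin from 6 birds was sequenced as single-end reads. The methods name TopHat on assembly Gallus_gallus-5.0, and the submitters' processing notes name HISAT2 (2.0.4), Bowtie2 (2.2.5), RSEM (1.1.12) and DESeq2 (1.4.5); which of these gave the values is not stated. The values that the authors deposited are FPKM, given to 2 decimals for each gene. Between 33.7% and 37.0% of the ratios of low FPKM between libraries lay within 5% of a ratio of whole numbers up to 3. Each share was taken at the shared scale that made it highest, and such windows cover between 16.9% and 18.0% of the range of the ratios. Whole reads were not recovered from these ratios, no count test was run, and the depth behind a gene is unknown. Birds were grouped by the labels. NCBI Gene IDs were matched to symbols in the RefSeq table of GRCg7b (15296 of 18315 IDs).

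The 15900 genes averaging 0.1 FPKM or more were compared on the scale log2(FPKM + 0.1), as s_light minus s_deep, by moderated linear models in limma (3.58.1, under R 4.3.3) with a trended prior variance, and p-values were adjusted by Benjamini and Hochberg's method. The scale understates the change of low genes. Single genes were compared by exact permutation of 3 against 3 libraries, with Python (3.11.15) and scipy (1.17.1). Replicates are separate birds.

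The members and gene lists were chosen with earlier results of these data known. Genes were named as members, as other MMP or TIMP symbols, as genes called in a list or else the 3 of lowest p, and as the 3 genes most like each member of at least 1 FPKM. The comparison was repeated with a pseudocount of 1 or of 0.01, without the filter or with 1 FPKM as the minimum, after scaling by median ratios or by quantiles, without the trend, with the W-linked mean as a covariate, with each library left out, and at a stricter threshold (a fold of 2 with an adjusted p of at most 0.001). A comparison restricted to the libraries with W genes read was added after the data were seen. Protein and promoter sequences were not analysed here.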

Additional observations from a re-analysis of the deposited data

How the results depend on the processing

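None of the 8 genes passed the threshold in any of the settings tried, and MMP2 and TIMP3 (15 settings) and MMP13 and MMP9 (14, as both are under the minimum of 1 FPKM) kept their sign in each setting they were tested in. The filter and the trend leave a log2 fold change as it is. Where the groups do not overlap, as for MMP2 and TIMP3, no pseudocount or left-out library can turn the sign. In most of these settings the sign of MMP2 and TIMP3 was therefore fixed in advance. With 3 birds a group and no read counts, small differences and those of genes under 1 FPKM cannot be resolved. No paired analysis was possible because the labels give no numbers shared between the groups.

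The members with an unadjusted p under 0.05 (limma) numbered 2, and 1 (TIMP3) with the W-linked mean as a covariate, where the s_deep side rests mainly on s_deep7858. They numbered between 0 and 2 with a library left out. The libraries with W genes read were 3 s_light and 1 s_deep, whose spread is then assumed to be that of s_light. Over all genes, 7 were called; the number was 12 with median-of-ratios scaling, 11 with a pseudocount of 1, 0 with the covariate, 0 among the libraries with W genes read, 0 at the stricter threshold, and between 0 and 69 with a library left out (69 without s_deep7858). Of the matrix genes, 1 was called, and 0 with the covariate, 0 among the libraries with W genes read and between 0 and 1 with a library left out. Of the regulators, 0 were called, and 1 (ATF3) with a minimum of 1 FPKM, 1 with median-of-ratios scaling, 1 with a pseudocount of 1 and between 0 and 1 with a library left out. Among the fits with a library left out, ATF3 was called only without s_deep7858 (adjusted p = 0.021, limma). In the others its adjusted p lay between 0.118 and 0.354 (limma). It was 0.307 with the covariate and 0.107 without the trend (limma).

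With the covariate the log2 fold changes of MMP9, MMP16, MMP17 and MMP24 were -0.47, -0.14, -1.04 and 0.31, of the same sign, against -0.26, -0.01, -0.60 and 0.03 without it, and those of ADAMTS1, TGFB2 and THBS2 were 0.33, 0.13 and 0.16, against 0.85, 0.68 and 0.29. The sign turned in the following log2 fold changes, for none of which the cause was tested. With the W-linked mean as a covariate they were -0.03 (TIMP2), -0.16 (MMP27), 0.52 (MMP7), 0.26 (MMP3), -0.09 (MMP15), 0.11 (MMP28), -0.67 (MMP1) and 0.03 (MMP10). Among the libraries with W genes read they were -0.03 (TIMP2), -0.11 (MMP27), 0.44 (MMP7), 0.39 (MMP3), -0.09 (MMP15), 0.15 (MMP28), -0.66 (MMP1) and 0.10 (MMP10). MMP16 was at 0.01 with median-of-ratios scaling and 0.00 with a pseudocount of 1. With a library left out, the range was -0.11 to 0.53 for MMP27, -1.39 to 0.03 for MMP7, -0.17 to 0.18 for MMP16, -0.04 to 0.16 for MMP15, -0.21 to 0.12 for MMP28, -0.65 to 0.47 for MMP1, -0.11 to 0.20 for MMP24 and -0.54 to 0.13 for MMP10.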
